A study of Homo sapiens with 4 samples.

Results

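The genes described here are 10 members of the Krüppel-like factor (KLF) family of transcription factors, KLF2, KLF3, KLF4, KLF5, KLF6, KLF7, KLF9, KLF10, KLF11 and KLF13. They were taken by name, out of 19775 genes on the array, and every probe set whose only annotated gene was one of them was read, which gave 32 of 41097 named probe sets. The names were chosen by log2 ratios seen in earlier results of these same 4 arrays, so the values below are a description and no test was made on them. In cultured cells read in bulk, fewer cells of a kind and less RNA per cell cannot be told apart. RNA came from human cell lines of lung adenocarcinoma, CL1-0 and its more invasive derivative CL1-5. CL1-0 cells carried either a control vector or one for AK4, an adenylate kinase of mitochondria, and CL1-5 cells carried either an AK4 shRNA vector or a non-silencing one. All 4 cultures were stably transduced and held in puromycin for 2 weeks, and each was hybridised once. There is therefore 1 array per group, no replicate error or test could be given, and precision is limited by how few arrays there are. A signal below is an intensity after the arrays were brought to a common trimmed mean, and values under a floor of 6.93 were set to it before ratios were taken. The floor touched few KLF readings, since 26 of the 32 probe sets lay above it on all 4 arrays and the other 6 on at least 1.

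KLF proteins bind GC-rich and CACCC-type DNA through C2H2 zinc fingers at their C-terminal end, which differ little between members, while the N-terminal parts differ and recruit different cofactors. KLF2, KLF4, KLF5, KLF6 and KLF7 can activate transcription through acetyltransferases. KLF3 is a repressor that recruits CtBP, and KLF9, KLF10, KLF11 and KLF13 carry a motif that binds the SIN3 corepressor. Several of them are switched on quickly by growth factors, TGF-beta, shear stress or hormones, and in epithelia they are known for their part in the balance between division and differentiation.

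The array readings set the frame for what follows. AK4 itself had log2 ratios from -1.25 to -0.88 over its 4 probe sets with AK4 shRNA, and from -0.25 to -0.05 on the array labelled AK4 vector, so that the AK4 signal does not bear out the CL1-0 label. Whether these probe sets lie within the insert of the vector is not given, so directions in CL1-0 rest on the label. For beta-actin the 3' probe set over the 5' one, a measure that goes up in degraded RNA, gave 6.04 and 6.54 on the CL1-0 arrays and 1.34 and 1.61 on the CL1-5 arrays. The same ratio for GAPDH differed less, at 1.25 and 1.54 in CL1-0 and 1.04 and 1.07 in CL1-5. The labels call the cells alveolar type II. Of 12 markers of that cell type 10 were on the array, and between 1 and 3 of them lay at or under the floor on each array, with SLC34A2 under it on all 4 and LAMP3, at 210 on the CL1-0 control array, under it on both CL1-5 arrays. The summed signal of 4 leukocyte markers was between 19.0 and 24.3, with PTPRC and LYZ under the floor throughout, and that of 4 endothelial markers between 23.4 and 25.2 in CL1-0 and between 64.9 and 72.4 in CL1-5, with CDH5 and KDR under the floor throughout. Keratin 18 (KRT18) was at 12.1 and 10.8 in CL1-0 and at 1681 and 1485 in CL1-5, and the 6 epithelial markers summed to 51.5 and 52.5 against 2027 and 1783, with EPCAM and CDH1 above the floor on the array labelled AK4 vector alone. Of 7 mesenchymal markers, led by VIM, the sums ran from 5045 to 6935 with COL3A1 and LUM under the floor. Whether RNA quality or these cell states had a part in the KLF differences between lines was not tested.

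Promoter sequence was held for 8 of the 10 genes, KLF3 and KLF10 being those without an entry, in 13 RefSeq windows (GRCh38.p14) that run from 250 bases before a transcription start to 50 after it. Motifs were searched on both strands. KLF proteins bind their own kind of site, so GC boxes and CACCC elements came first. GGGCGG lay in 8 of the 13 KLF windows, which belong to 7 of the 8 genes, all but KLF9, and in 45% of all 35114 promoter windows. CACCC, whose matches on 1 strand can overlap with those of GGGCGG on the other, lay in 7 of the 13 KLF windows, those of KLF5, KLF7, KLF11 and KLF13, and in 59.9% of all windows. Boxes for upstream regulators were rarer. The binding box of MEF2 factors lay in 0.572% of all windows and in that of KLF2, the CArG box bound by serum response factor (SRF) in 1.29% and in 1 window of KLF7, and the cAMP response element TGACGTCA in 1.85% and in 1 window of KLF11. The stretches of KLF2 and KLF7 are shown because the levels of MEF2 factors and SRF are given further on. The stretch of KLF11 is shown as another of the rarer boxes. Capitals mark the box, and each stretch is written 5′ to 3′ on the strand of its gene.
KLF2, MEF2 box, chr19:16324696-16324725 (+ strand): tataccgcggCTAAATTTAGgctgcgcccg
KLF7, CArG box, chr2:207167289-207167318 (- strand): accacactaaCCATTTAAGGtcaagcaaac
KLF11, cAMP response element, chr2:10044034-10044063 (+ strand): atttccagccaTGACGTCAccccggtcctg
The boxes begin 120, 62 and 176 bases before the start in that order. A match of letters describes the sequence and does not show that a factor binds there.

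In CL1-0 the question was how expression differs with AK4 overexpression. Read by the probe set with the highest mean signal, 3 of the 10 KLF genes were lower by 2-fold or more on the array that carries the AK4 vector label (the AK4-labelled array below), namely KLF5, KLF10 and KLF7, and 0 were higher by 2-fold or more. Over all 14681 genes measured in this comparison 1.16% were lower by 2-fold or more and 3.22% higher by 2-fold or more, and higher genes made up 73.4% of the calls, or 62.4% after loess. The median log2 ratio was -0.38 over the KLF genes and 0.05 over all genes. Of the KLF genes 7 were below 0, beside 43.9% of all genes. The count of 3 went to 1 with probe sets averaged of a gene and also to 1 without the _x_at and _s_at probe sets. That last choice leaves KLF4, KLF9 and KLF10 with no probe set.

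**Figure D1:**
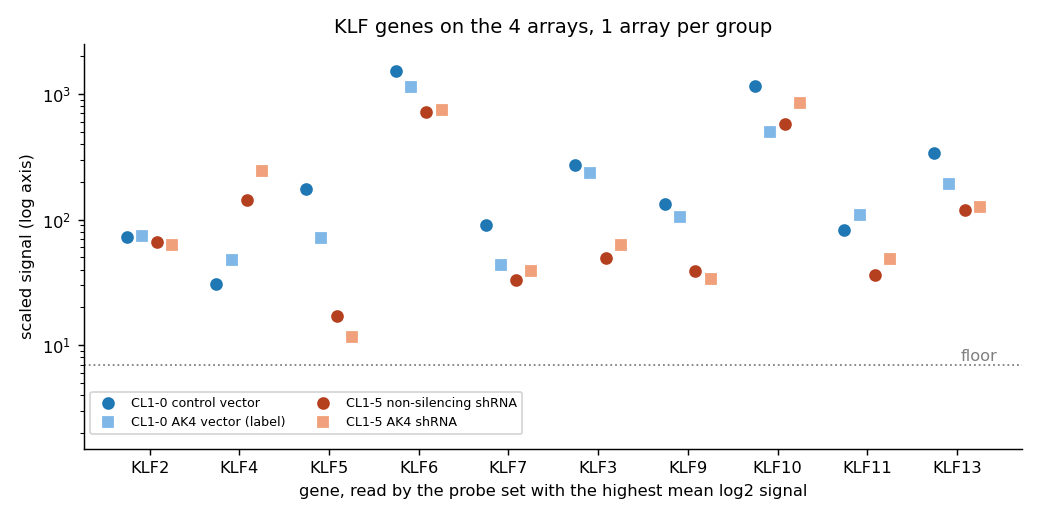
Scaled signal (log axis) of each KLF gene on the 4 arrays, read by the probe set with the highest mean log2 signal, with CL1-0 in blue, CL1-5 in red, circles for the control constructs and squares for the AK4 constructs. KLF5 lay at 177 and 71.5 in CL1-0 against 17.1 and 11.7 in CL1-5, and KLF4 at 30.8 and 47.4 against 144 and 245. The dotted line is the floor of 6.93, and heights of different genes cannot be compared because each probe set has its own response.

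Among the activating members KLF5 had the largest ratio in size in CL1-0, and KLF4 in CL1-5. KLF5 drives proliferation of basal and crypt epithelium. Its probe set 209212_s_at read 177 for the CL1-0 control and 71.5 for the AK4-labelled array, and at 17.1 and 11.7 on the CL1-5 non-silencing and AK4 shRNA arrays. All 4 arrays were thus apart, with both CL1-0 arrays above both CL1-5 arrays and the control above the AK4 construct in each line. The log2 ratio was -1.31 in CL1-0, rank 49 from the lowest of 14681 genes, and -0.54 in CL1-5, rank 126 from the lowest of 15321. The second probe set, 209211_at, was at 101 and 79.1 in CL1-0, a log2 ratio of only -0.36, and at 5.96 and 5.604, under the floor, in CL1-5. The sign of KLF5 in CL1-0 was therefore the same by both probe sets and the 2-fold call was not. A floor raised to percentile 60 gave a CL1-5 ratio of -0.03, since the higher floor then touches these readings.

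KLF4, a factor of epithelial differentiation and one of the reprogramming factors, had the opposite order of lines. Probe set 221841_s_at was at 30.8 and 47.4 on the CL1-0 control and AK4 vector arrays, and at 144 and 245 on the CL1-5 non-silencing and AK4 shRNA arrays. Both CL1-5 arrays were above both CL1-0 arrays, and within each line the array with the AK4 construct was the brighter. The log2 ratio was 0.62 in CL1-0 and 0.77 in CL1-5. The latter was rank 46 from the highest of 15321 genes and the largest KLF ratio in that comparison, though under 2-fold. Probe set 220266_s_at was at 7.65 and 7.41 in CL1-0, close to the floor, with a ratio of -0.05, and at 49.5 and 64.5 in CL1-5, with a ratio of 0.38. The 2 probe sets thus shared the CL1-5 direction and not that in CL1-0.

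KLF6, which is induced early after injury and activates genes of the TGF-beta system, was read by 5 probe sets. The brightest, 1555832_s_at, was at 1531 on the control array and 1136 on the AK4-labelled array, a log2 ratio of -0.43, and at 723 and 751 in CL1-5. Probe sets 208960_s_at and 208961_s_at had log2 ratios of -1.22 and -1.10 in CL1-0, from 360.3 to 155 and from 848 to 394. The other 2 were at -0.62 for 224606_at and -0.25 for 211610_at. All 5 KLF6 probe sets lay below 0 in CL1-0, and 2 of them passed 2-fold although the one that reads the gene did not. Among the 380 genes with at least 5 probe sets above the floor on both CL1-0 arrays, 9.47% had all of them lower. In CL1-5 the KLF6 ratios ran from -0.02 to 0.16.

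KLF7, a factor first known from neuronal differentiation, also had 5 probe sets. Probe set 204334_at was at 90.5 on the control array and 43.4 on the AK4-labelled array, a log2 ratio of -1.06, and at 32.9 and 38.7 in CL1-5. The control array of CL1-0 stood apart from the other three, which were close together. Of the 5 probe sets 4 were lower on the AK4-labelled array, with 238482_at at -0.92 and the remaining ratios between -0.25 and 0.02. With AK4 shRNA all 5 were higher, at 0.65 for 238482_at, 0.56 for 240432_x_at, 0.31 for 1555420_a_at, 0.24 for 204334_at and 0.19 for 238517_at. Among 575 genes with at least 5 probe sets above the floor on both CL1-5 arrays, 4.52% had all of them higher and 4.7% all lower.

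KLF2, which keeps endothelial and T cells quiescent, differed little between the arrays by its brighter probe set. Probe set 219371_s_at was at 72.4 and 74.1 in CL1-0 and at 66.2 and 62.6 in CL1-5. The 4 readings lay close together, and the log2 ratios were 0.03 and -0.08. The dimmer 226646_at was at 14.1 and 12.5 in CL1-0 and at 9.26 and 7.32 in CL1-5, with ratios of -0.18 and -0.34. The sign of KLF2 in CL1-0 was that of a ratio near 0 and turned to -0.02 under quantile normalization, -0.06 after loess and -0.07 with the mean of its probe sets.

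**Figure D2:**
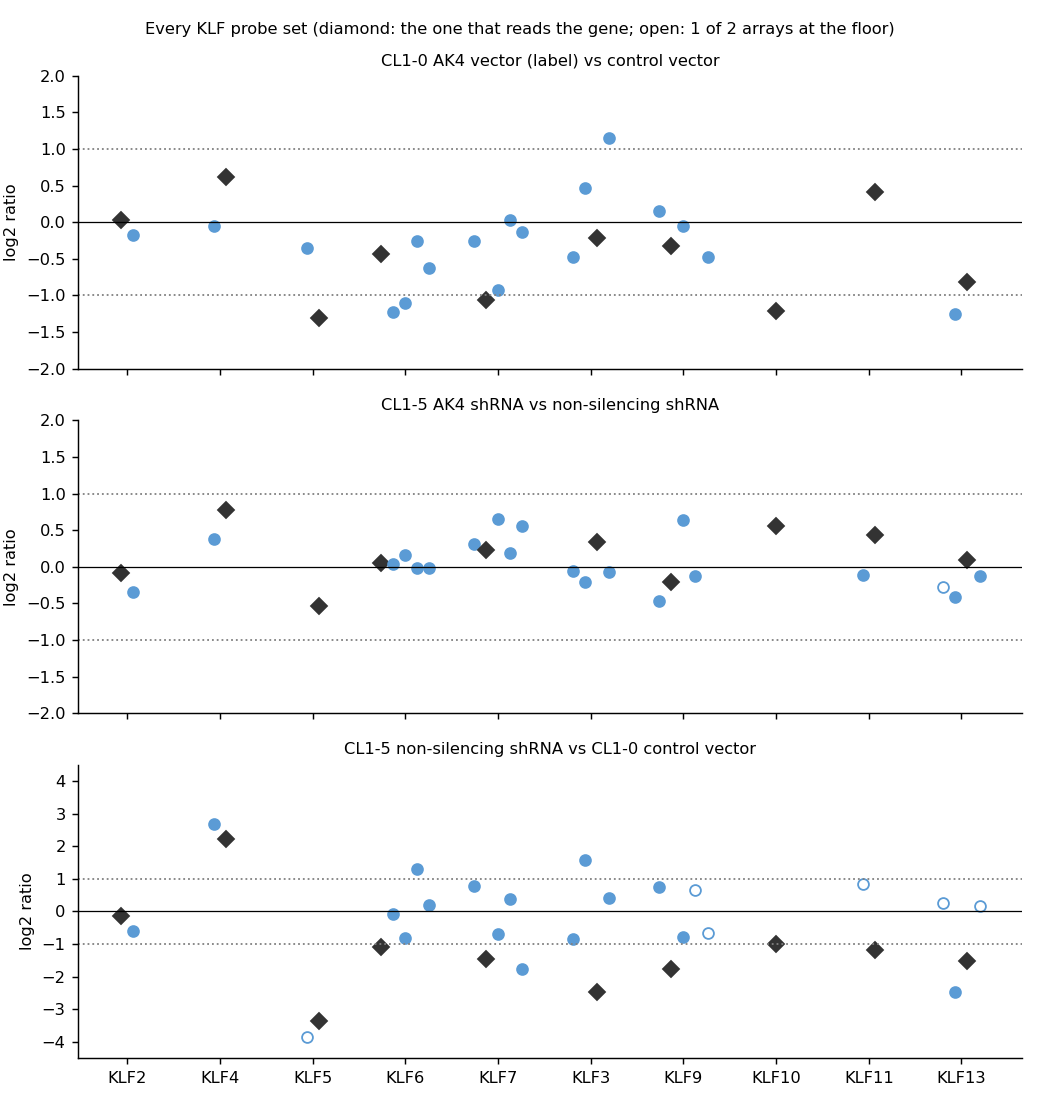
Log2 ratio of every KLF probe set in the 3 comparisons, with dotted lines at 2-fold, diamonds for the probe set that reads the gene, open symbols where 1 of the 2 arrays lay at the floor, and probe sets under the floor on both arrays left out. KLF6 lay below 0 with all 5 probe sets in CL1-0, KLF7 above 0 with all 5 in CL1-5, and KLF3 on both sides of 0 in each panel. The vertical axis of the bottom panel is wider than that of the others.

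KLF3, the CtBP-binding repressor, had probe sets on both sides of 0 in all 3 comparisons. Probe set 225133_at read 273 for the CL1-0 control and 236 for the AK4-labelled array, and at 49.5 and 62.8 in CL1-5, so both CL1-0 arrays were well above both CL1-5 arrays. Its log2 ratios for the AK4 constructs were -0.21 and 0.34. Probe set 225140_at was at 22.0 and 48.8 in CL1-0, a log2 ratio of 1.15, which is the only KLF probe set higher by 2-fold or more there. It was at 29.4 and 27.8 in CL1-5. The remaining KLF3 probe sets, 222913_at and 219657_s_at, had CL1-0 ratios of 0.46 and -0.48. With 2 probe sets above 0 and 2 below, KLF3 had no single direction in CL1-0, and the mean of its probe sets gave 0.23. With AK4 shRNA 3 of its 4 probe sets were below 0.

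Of the SIN3-binding members KLF10, a TGF-beta-induced early gene, had the largest ratio in size with both AK4 constructs by the probe set that reads each gene. Its only probe set, 202393_s_at, read 1161 for the CL1-0 control and 500.3 for the AK4-labelled array, and at 581 on the CL1-5 non-silencing array and 855 with AK4 shRNA. The arrays of the lines overlapped, and the order of control and AK4 construct was opposite in them. The log2 ratio was -1.21 in CL1-0, rank 69 from the lowest, and 0.56 in CL1-5, where 98.9% of genes had a lower ratio. Over the alternatives the ratios stayed between -1.24 and -1.07 in CL1-0 and between 0.56 and 0.60 in CL1-5. Averaging probe sets could not change these ratios, and leaving out the _x_at and _s_at probe sets left KLF10 with no value. Those choices are therefore no check on KLF10. There is no other probe set of KLF10 to set beside 202393_s_at.

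KLF13, known for regulation of lymphocyte chemokines and of the heart, was read above the floor on all arrays by 2 of its 4 probe sets. Probe set 225390_s_at read 337 for the CL1-0 control and 191 for the AK4-labelled array, and at 118 and 126 in CL1-5. The log2 ratio in CL1-0 was -0.82, short of 2-fold. Probe set 219878_s_at was at 102 and 42.9 in CL1-0, a log2 ratio of -1.26, and at 18.3 and 13.8 in CL1-5. KLF13 was lower on the AK4-labelled array by both of these probe sets, while in CL1-5 their ratios were 0.10 and -0.41. The dim 230094_at and 1564463_at were under the floor on both CL1-0 arrays.

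KLF11 is the closest relative of KLF10 and also induced by TGF-beta, and KLF9 is a target of glucocorticoid and thyroid hormone receptors. By the probe set that reads each gene, both had smaller ratios in size than KLF10 and KLF13 in CL1-0. In CL1-5 both were larger in size than KLF13 at 0.10 and smaller than KLF10 at 0.56. KLF11 was at 82.7 and 109.7 in CL1-0 and at 36.1 and 48.9 in CL1-5 by 218486_at, with log2 ratios of 0.41 and 0.44, both above 0. Its second probe set was under the floor on both CL1-0 arrays and at -0.11 in CL1-5. KLF9 was at 132 and 106 in CL1-0 and at 38.7 and 33.6 in CL1-5 by 203542_s_at, with log2 ratios of -0.32 and -0.20. The second brightest KLF9 probe set, 203543_s_at, was at 69.0, 66.6, 39.8 and 62.2 in the same order, so that it was higher with AK4 shRNA by 0.64 where 203542_s_at was lower.

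In CL1-5 the question was how expression differs with AK4 silencing. None of the 10 genes passed 2-fold in either direction, where 0.0914% of 15321 genes were higher by 2-fold or more and 0.0131% lower by 2-fold or more. The ratios ran from -0.54 for KLF5 to 0.77 for KLF4. Their median was 0.17 and 7 were above 0, beside a median of -0.0015 and 49.7% above 0 over all genes. KLF4, KLF10 and KLF11 had the largest ratios above 0, with KLF11 above 97.3% of all genes.

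**Figure D3:**
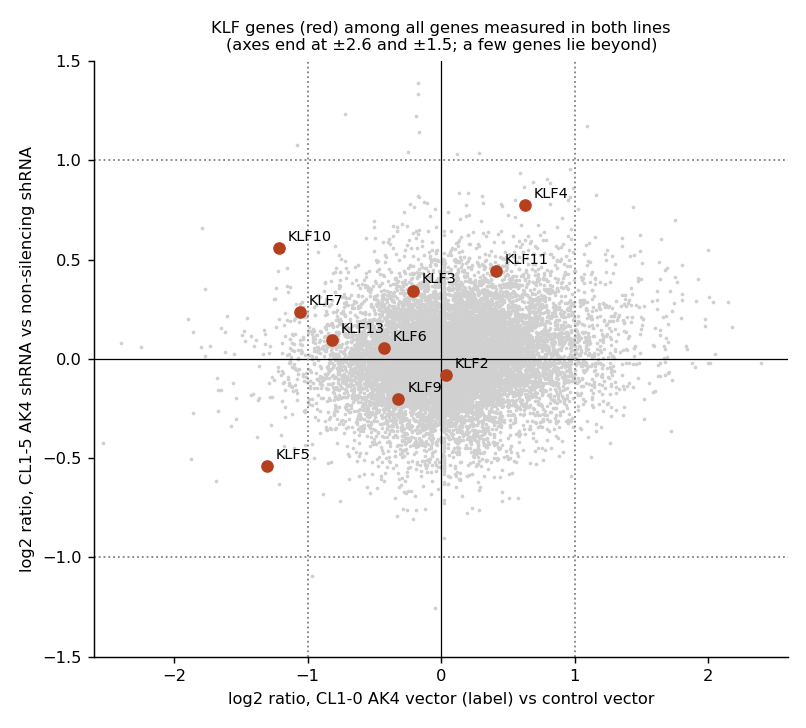
Log2 ratio of each gene in CL1-0 (horizontal) against that in CL1-5 (vertical), for the genes measured in both, with the 10 KLF genes in red and dotted lines at 2-fold. KLF10 stood at -1.21 and 0.56, KLF5 at -1.31 and -0.54, and KLF4 at 0.62 and 0.77.

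A gene that goes down with AK4 would be lower with the vector and higher with the shRNA. KLF3, KLF6, KLF7, KLF10 and KLF13 had these signs, 5 of 10, where 20.3% of the 13741 genes measured in both comparisons did. These 2 comparisons share no array, but the genes were chosen with ratios of these arrays known, so the count is no test. AK4 itself was not higher on the AK4-labelled array, at log2 ratios from -0.25 to -0.05. Of the 5 genes only KLF10 and KLF7 had a ratio past 2-fold in CL1-0, and KLF6 at 0.05 and KLF13 at 0.10 were near 0 in CL1-5. KLF3 left the pattern with probe sets averaged, at 0.23 in CL1-0 and 0.00025 in CL1-5. KLF13 turned to -0.18 in CL1-5 with probe sets averaged. Without the _x_at and _s_at probe sets KLF6 was at -0.02 there. KLF13 was then at -0.27, by a probe set above the floor on the non-silencing array alone. KLF5 and KLF9 were lower in both, as were 23.5% of genes, KLF4 and KLF11 were higher in both, as were 30.5%, and KLF2 alone had the remaining pattern, shown by 25.7%.

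**Figure D4:**
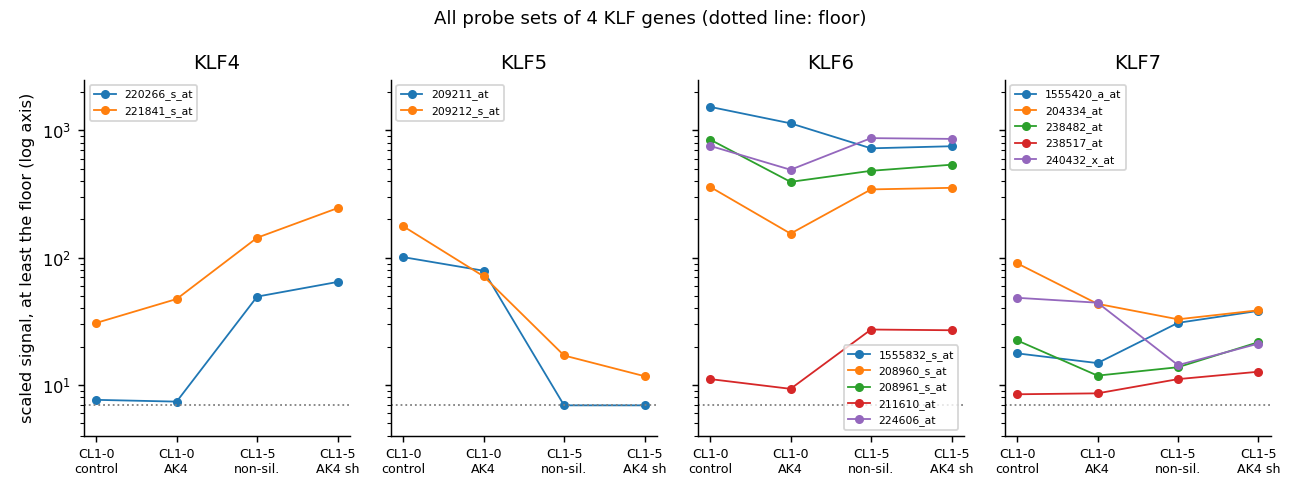
Scaled signal (log axis, values under the floor drawn at it) of all probe sets of KLF4, KLF5, KLF6 and KLF7 on the 4 arrays, each of another group, so that the lines join readings of 1 probe set and show no time course. Both KLF4 probe sets were higher and both KLF5 probe sets lower in CL1-5, while KLF6 and KLF7 had probe sets on both sides.

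The control arrays of both lines were compared next, which describes the cells in which AK4 was altered. This comparison shares an array with each of those above. In the CL1-5 control 7 of the 10 KLF genes were lower by 2-fold or more than in the CL1-0 control, and KLF4 alone was higher by 2-fold or more. Over all 15970 genes measured 14.2% were lower by 2-fold or more and 17.1% higher by 2-fold or more. Higher genes made up 54.6% of these calls, 42.9% under quantile normalization and 90.4% on the values as deposited. The median log2 ratio was -1.33 over the KLF genes and 0.13 over all genes, and the latter was -0.064 under quantile normalization and 0.83 on the values as deposited. The count of 7 lower was 6 after loess or quantile normalization, 4 without the _x_at and _s_at probe sets, 2 on the values as deposited and 1 with probe sets averaged, where KLF5 remained. The higher side went from 1 to 0 without the _x_at and _s_at probe sets, which leaves KLF4 with none.

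By gene, KLF5 was lower in the CL1-5 control by a log2 ratio of -3.37, rank 150 from the lowest, and its probe set 209211_at gave -3.87, a bound because it was under the floor in CL1-5. KLF4 was higher by 2.22 and by 2.69 with 220266_s_at. For these 2 genes each probe set passed 2-fold in the same direction, and KLF5 ranged from -3.87 to -2.50 and KLF4 from 1.98 to 3.09 over the alternatives. KLF3 was at -2.47 by 225133_at but at 1.57 by 222913_at. KLF9 was at -1.77, with 203543_s_at at -0.79 and the dim 203541_s_at at 0.76.

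KLF13 was at -1.51 and at -2.48 by 219878_s_at, KLF7 at -1.46 with its 5 probe sets from -1.76 to 0.80, and KLF11 at -1.20. The second KLF11 probe set, under the floor in CL1-0, was at 0.85, and the KLF11 call was lost with probe sets averaged (-0.17) and on the values as deposited (-0.33). KLF6 was at -1.08 by 1555832_s_at, while its other probe sets ran from -0.82 to 1.29, so that the call for KLF6 rests on 1 of 5. Neither KLF6 nor KLF7 had all probe sets on 1 side between the controls, where 7.76% of 361 genes with at least 5 such probe sets had all of them lower. KLF10 was at -0.998, just short of 2-fold, and at -0.13 on the values as deposited. KLF2 was at -0.13, and at 0.74 on the values as deposited. Without the _x_at and _s_at probe sets KLF6 and KLF13 reversed, to 0.20 and 0.27. The KLF13 value is set by the floor, since 1564463_at then reads it, above the floor in the CL1-5 control alone, at 8.35. Both KLF13 probe sets above the floor on all arrays were lower, at -1.51 and -2.48.

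With both arrays of a line required to lie at least 2-fold from both of the other, KLF4 was higher in CL1-5, and KLF3, KLF5 and KLF9 were lower. Of 16261 genes 10.7% were higher by this rule and 9.6% lower. The gap between the nearest arrays was 1.60 for KLF4, 2.07 for KLF5, 1.91 for KLF3 and 1.45 for KLF9 on the log2 scale. KLF13, KLF11, KLF6 and KLF7 also had both CL1-0 arrays above both CL1-5 arrays, by smaller gaps of 0.59, 0.76, 0.60 and 0.17. KLF2 had a gap of 0.13 in the same direction, and KLF10 was the member whose arrays overlapped between the lines. All these gaps are those of the probe set that reads each gene, and some other probe sets had the reverse order. KLF6 224606_at was at 756 and 491 in CL1-0 against 870 and 858 in CL1-5. KLF7 1555420_a_at was at 17.7 and 14.9 against 30.8 and 38.3, and KLF3 222913_at at 13.7 and 18.8 against 40.5 and 35.2. The dim KLF9 203541_s_at was at 7.64 and 8.46 against 12.9 and 9.30. KLF9 228474_s_at, under the floor on both CL1-0 arrays, was reversed too. Of the 5 KLF9 probe sets 3 were below 0 between the controls, 1 of them by 2-fold or more, and 2 were above 0. The count of 3 lower went to 1 with probe sets averaged and on the values as deposited, and the count of 1 higher to 0 without the _x_at and _s_at probe sets.

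The other genes of the pathway were taken from lists of family members, upstream regulators and reported targets. Over all genes 3.22% were higher and 1.16% lower by 2-fold or more in CL1-0, and 0.0914% and 0.0131% in CL1-5. Between the control arrays these shares were 17.1% and 14.2%. Counts and ratios are those of the probe set that reads each gene, and other probe sets are named where they were above the floor on both arrays and either went against a call or passed 2-fold with an AK4 construct. Of the other KLF and SP family members 15 had a named probe set, and 0 of 12 measured in CL1-0 and 0 of 11 in CL1-5 passed 2-fold with the AK4 constructs. Their medians were 0.02 in both. The largest ratios in size were those of SP4 (0.60) and KLF14 (-0.48) in CL1-0 and KLF14 (-0.65) and SP1 (-0.34) in CL1-5. Between the control arrays 3 of 13 were lower by 2-fold or more in CL1-5 and 2 higher. KLF12, which binds CtBP like KLF3, was lower at -2.18, with signals of 76.98 and 74.5 in CL1-0 against 16.99 and 20.2 in CL1-5, and the general GC-box factor SP1 was lower at -1.58, although its 4 probe sets ran from -2.44 to 1.077. SP5, a Wnt target, was higher at 1.75, a value set in part by the floor, and SP8 at 1.61.

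Upstream of KLF2 and KLF4 lies the kinase ERK5 (MAPK7), which activates MEF2 factors. None of these genes passed 2-fold with the AK4 constructs, the largest ratios being those of MEF2D (-0.95) and MEF2C (-0.42) in CL1-0 and MAP2K5 (0.30) and MAP3K2 (0.28) in CL1-5. Between the control arrays 3 of 7 were lower by 2-fold or more in CL1-5 and 0 higher, with a median of -0.54. MEF2C was at 281 and 209 in CL1-0 and under the floor in CL1-5, so its log2 ratio of -5.34 is a bound for its probe set. MEF2A was at 483 and 408 in CL1-0 and at 68.4 and 71.3 in CL1-5, a ratio of -2.82, and MAP3K2 was at -1.40, although its probe sets ran up to 1.74 in the other direction. KLF2, whose promoter stretch holds the MEF2 box shown above, had nearly the same scaled signal on all of these arrays by its brighter probe set. On the values as deposited that probe set gave a ratio of 0.74 between the controls. The dimmer KLF2 probe set was at 14.1 and 12.5 in CL1-0 and at 9.26 and 7.32 in CL1-5. Whether MEF2 factors had a part in the level of KLF2 was not tested.

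Among the genes of TGF-beta signalling, which induces KLF10 and KLF11, 2 of 12 were lower by 2-fold or more on the AK4-labelled array and 1 was higher. The receptor TGFBR2 was lower at -1.27, from 32.1 to 13.3, the ligand TGFB1 was lower at -1.10, from 209.9 to 97.7, and the SMAD corepressor SKI was higher at 1.07. With AK4 shRNA 0 of 12 passed 2-fold, and the largest ratios were those of the corepressor SKIL (0.64) and of SMAD4 (0.27). Another probe set of the SMAD corepressor TGIF1 was at 1.31 with AK4 shRNA. Between the control arrays 4 of 12 were higher and 3 lower in CL1-5, with SMAD3 at 3.88, TGFBR2 at 3.56, SKIL at -4.45 and SMAD2 at -1.89. SKIL was at 413 and 384 in CL1-0 and at 18.9 and 29.5 in CL1-5.

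SRF and its cofactors control early genes after serum stimulation. Of 6 genes 5 had a ratio below 0 on the AK4-labelled array, beside 43.9% of all genes. The median was -0.34, and 0 passed 2-fold. The coactivator MRTFB was at 0.96 and SRF at -0.86, from 170 to 93.6, and the second SRF probe set was at -1.22, past 2-fold. SRF was at 133 and 137 in CL1-5, where 0 of 6 passed 2-fold and the largest ratios were those of ELK3 (0.29) and MRTFB (0.27). Between the control arrays ELK3 was higher in CL1-5 at 2.11 and ELK4 lower at -1.44, although another ELK4 probe set was at 1.20.

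Reported targets of KLF proteins included both induced and repressed genes, so that their list has no single direction. Of 28 measured in CL1-0, 3 were lower by 2-fold or more and 2 higher on the AK4-labelled array, with a median of -0.12. The matrix protein gene THBS1 was lower at -1.73, from 134 to 40.2, and caveolin CAV1 at -1.13, while the mitosis genes BIRC5 and CCNB1 were higher at 1.49 and 1.05. In CL1-5 0 of 29 passed 2-fold with AK4 shRNA, and the largest ratios were COL1A1 at -0.48 and CEBPD at 0.38. Another probe set of the growth factor gene PDGFA was at -1.11 there. Between the control arrays the list's median was 0.85. Of 29 genes 13 were higher by 2-fold or more in CL1-5 and 9 lower, beside 17.1% and 14.2% of all genes. Of these calls 3, those of EGFR, FASN and NR4A1, had another probe set in the other direction. The urokinase gene PLAU was higher at 8.05, CAV1 at 6.61 and thrombomodulin (THBD) at 5.81, and heme oxygenase (HMOX1) was lower at -4.70. THBD was above the floor in CL1-5 alone, so its ratio is set in part by the floor. PLAU was at 7.82 in the CL1-0 control, close to the floor, so the size of its ratio rests on a dim reading.

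**Figure D5:**
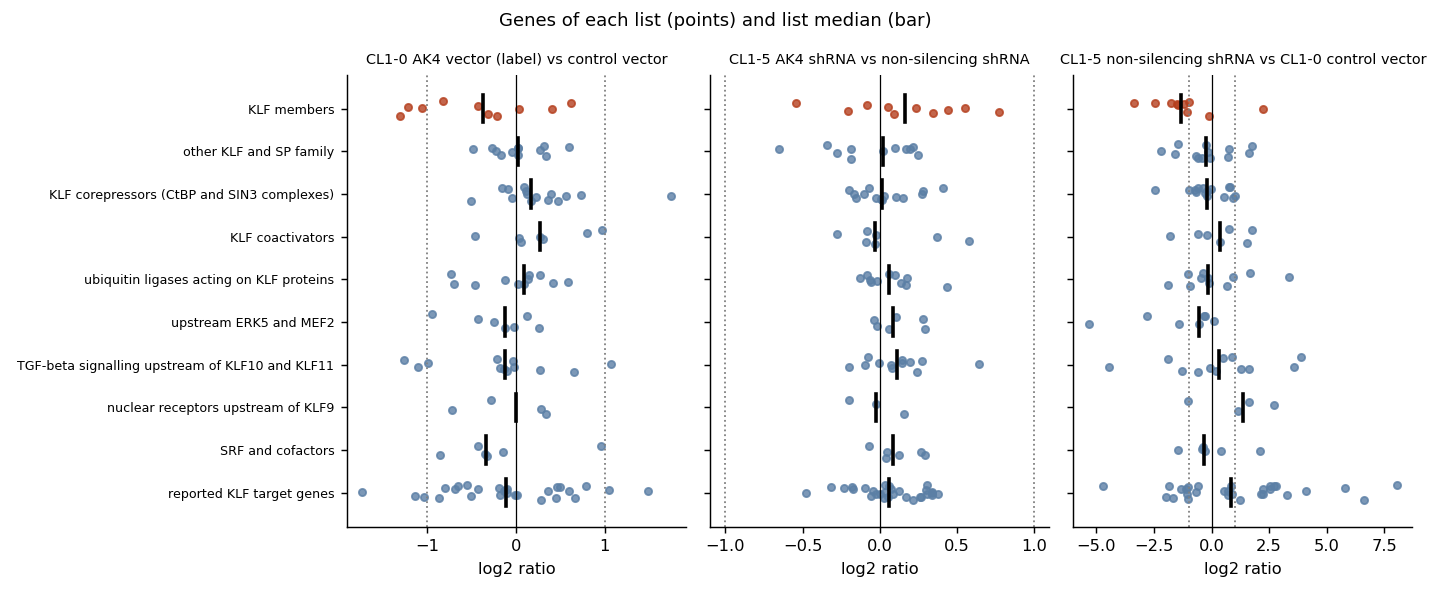
Log2 ratio of the 10 KLF genes (red) and of the genes on each list (blue) in the 3 comparisons, with a bar at each median and dotted lines at 2-fold. The KLF median lay at -0.38, 0.17 and -1.33 from left to right, and the horizontal axes differ between the panels.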

How the data were processed

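RNA of 4 cultures was read in 1 colour on arrays of 54675 probe sets. The authors deposited 1 intensity per probe set and array, on a linear scale. MAS5 is named in the submitters' processing notes, with neither version, role nor scaling given. As deposited the arrays differed in trimmed mean, at 37.5 and 36.8 for CL1-0 and 68.5 and 69.4 for CL1-5, so that differences between the lines lean on the scaling. Each array was brought to a common trimmed mean, with 2% left out at each end and 62 control probe sets left out, and a floor was set at the 40th percentile. Among probe sets with a single symbol, the one of highest mean log2 signal stood for its gene. A gene was measured where at least 1 of 2 arrays exceeded the floor, and called past 2-fold. Symbols came from the platform annotation, and 99.9% were matched to RefSeq by gene identifier. With 1 array per group no test was made. Every member is named, with at most 4 genes of a list past 2-fold, or else the 2 largest ratios. Of 120 distinct list genes 111 had a named probe set. The members and lists were chosen with earlier results of these data known. The 7 alternatives were quantile normalization, loess per pair of arrays, no scaling, a floor at the 60th percentile, no floor with log2 of the value plus 1, the mean of all probe sets of a gene, and leaving out _x_at and _s_at probe sets. The steps were tested on simulated data. Python 3.11.15 with pandas 2.3.3 and statsmodels 0.14.6 was used.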

Additional observations from a re-analysis of the deposited data

How the results depend on the processing

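No paired analysis was possible because each group holds 1 array, and no array could be left out for the same reason. With the mean of all probe sets the number of KLF genes at least 2-fold lower went from 3 to 1 in CL1-0 and from 7 to 1 between the control arrays, and from 3 to 1 with both arrays of each line. Without the _x_at and _s_at probe sets it went to 1 in CL1-0 and 4 between the controls. The higher counts between the lines then went from 1 to 0. KLF6 reversed to 0.20, and KLF13 to 0.27 by a probe set above the floor on 1 array alone. This choice leaves fewer genes with a probe set. On the values as deposited the lower counts between the lines were 2 for the controls and 1 with both arrays of each line, where the median of all genes was 0.83. The other counts of KLF genes past 2-fold stayed within 1.5 times under the 7 alternatives. Of the single KLF ratios 5 of 66 changed sign in CL1-0, 3 of 66 in CL1-5 and 3 of 67 between the controls. Apart from KLF6 and KLF13, no KLF gene past 2-fold changed sign. The scatter between probe sets of a gene was 0.41, 0.22 and 0.85 (pooled SD of the log2 ratio) in these comparisons. It is no replicate error.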

Other observations

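Cofactors and regulators of KLF proteins were also read, each by its probe set of highest mean signal. The shares of all genes past 2-fold are those given with the lists above. Of 15 genes of the CtBP and SIN3 corepressor complexes, SUDS3, a SIN3 subunit, was the only one past 2-fold on the array labelled AK4 vector, at 1.75, and its other probe set was at 0.02. The list's median there was 0.17, with 11 of 15 above 0, beside 56.1% of all genes. In CL1-5 0 of 14 passed 2-fold, and the largest ratios were those of SUDS3 (0.41) and ZEB1 (0.28). Between the control arrays ZEB2, a CtBP-binding repressor of epithelial genes, was lower in CL1-5 at -2.44, a value set by the floor, and the histone chaperone RBBP4 was higher at 1.03. Of 7 coactivators 0 passed 2-fold with either AK4 construct, with KAT2A at 0.97 and PARP1 at 0.80 in CL1-0 and EP300 at 0.58 and CREBBP at 0.37 in CL1-5. The second EP300 probe set was at -1.11 in CL1-0, past 2-fold in the other direction. The acetyltransferase CREBBP was lower in the CL1-5 control at -1.78, while PARP1 (1.76) and KAT2A (1.54) were higher.

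The list of ubiquitin ligases that act on KLF proteins also holds EGLN2, a prolyl hydroxylase. Of the list's 11 genes 0 passed 2-fold with either AK4 construct. The largest ratios were ITCH (-0.73) and VHL (-0.70) in CL1-0 and VHL (0.44) and SMURF2 (0.17) in CL1-5. WWP1, a ligase of KLF2 and KLF5, was higher in the CL1-5 control at 1.67, though at 0.23 by its other probe set. FBXO32 was higher at 3.36, and VHL (-1.89) and ITCH (-1.03) were lower. The ITCH probe sets ran from -1.39 to 0.71 between the controls and from -0.93 to 0.66 in CL1-0. Of the nuclear receptors upstream of KLF9, 0 of 4 in CL1-0 and 0 of 3 in CL1-5 passed 2-fold with the AK4 constructs, with THRB (-0.72) and ESR1 (0.33) the largest in CL1-0 and THRA (-0.20) and NR3C1 (0.16) in CL1-5. The glucocorticoid receptor NR3C1 was higher in the CL1-5 control at 2.70, ESR1 at 1.61 and THRA at 1.13, with another THRA probe set at -0.06, and THRB was lower at -1.04, a value set by the floor, while KLF9 was lower in CL1-5 at -1.77.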
